A study of Mus musculus with 2 samples.

Results

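The 9 genes studied here belong to the T cell receptor complex and its first signalling steps, measured in lymph node T cells: Cd3d, Cd3e, Cd3g, Cd247, Lck, Zap70, Lat, Cd28 and Ptpn22. They were chosen by name, and 9 of 9 were among the 32285 genes of both count matrices. The wild-type (WT) library and the RPA1 conditional knockout (CKO) library were each prepared from immune cells of the lymph nodes of C57BL/6 mice, with 1 library per genotype. Rpa1 encodes the large subunit of replication protein A, a complex that binds DNA strands laid bare while DNA is copied or repaired. Neither the age, sex and number of the mice nor the deleted exons and the driver of the deletion are given in the sources used here. With 1 library per genotype there was no test between genotypes, and every interval below is a 95% interval that covers counting error only.

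T cells were gated without the 9 genes. A gated T cell held at least 2 UMIs (unique molecular identifiers, each tagging 1 captured transcript) of Thy1 and Trac together and none of Cd79a. This gave 7288 WT cells (65.3% of 11161 kept cells) and 3215 CKO cells (27.2% of 11803). They were split by detected transcripts into CD4 T cells (2648 WT and 1270 CKO), CD8 T cells with Cd8b1 (2721 and 433), Foxp3 T cells (213 and 178) and Trdc T cells, which held a UMI of the delta chain constant gene (194 and 523). Cells with both co-receptors numbered 299 and 279, and cells with neither 1213 and 532. Natural killer (NK) cells, with at least 1 Ncr1 UMI and none of Cd79a, numbered 90 and 234, of which 23 and 51 also passed the T cell gate. B cells with at least 2 Cd79a UMIs and no Thy1 or Trac UMI were set beside them as a class that should lack the CD3 genes.

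The alpha beta form of the receptor binds peptide on major histocompatibility molecules through its variable chains, which have no signalling tail of their own. The CD3 delta, epsilon and gamma chains and the zeta chain (Cd247) carry the tyrosine motifs that the kinase Lck phosphorylates. Zap70 then docks on these motifs and phosphorylates the adaptor Lat, on which further signalling proteins assemble. CD28 gives the co-stimulatory signal that naive T cells need for full activation, and the phosphatase encoded by Ptpn22 acts against Lck and Zap70. In NK cells the zeta chain works with other receptors, and surface CD3 is absent.

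The 3 CD3 genes are neighbours on chromosome 9 of the mouse build GRCm38. Cd3g (ENSMUSG00000002033, 44969572 to 44980431, minus strand) and Cd3d (ENSMUSG00000032094, 44981786 to 44987339, plus strand) point away from each other, with starts 1355 bases apart. Cd3e (ENSMUSG00000032093, 44998740 to 45009627, minus strand) starts 27841 bases from Cd3d. Their promoters are shown because their levels ran closest together over the classes, and 1 promoter of Lck because its ratio lay above 1 in every T cell class. Each sequence is the 250 bases before a start in RefSeq (GRCm38.p6), written 5′ to 3′ on the gene's strand, with matches to any of 6 motifs in capitals.
Cd3d, chr9:44981536-44981785: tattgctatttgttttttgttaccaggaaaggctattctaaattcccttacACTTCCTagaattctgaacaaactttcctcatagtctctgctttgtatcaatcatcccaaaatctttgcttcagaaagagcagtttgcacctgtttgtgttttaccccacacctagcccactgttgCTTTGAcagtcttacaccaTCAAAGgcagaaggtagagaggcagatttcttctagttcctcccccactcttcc
Cd3e, chr9:45009612-45009861: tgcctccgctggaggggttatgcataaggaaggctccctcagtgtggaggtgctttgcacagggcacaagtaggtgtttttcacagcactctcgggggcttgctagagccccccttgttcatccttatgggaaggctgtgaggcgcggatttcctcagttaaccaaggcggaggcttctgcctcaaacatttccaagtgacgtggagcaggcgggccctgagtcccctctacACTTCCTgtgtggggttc
Cd3g, chr9:44980432-44980681: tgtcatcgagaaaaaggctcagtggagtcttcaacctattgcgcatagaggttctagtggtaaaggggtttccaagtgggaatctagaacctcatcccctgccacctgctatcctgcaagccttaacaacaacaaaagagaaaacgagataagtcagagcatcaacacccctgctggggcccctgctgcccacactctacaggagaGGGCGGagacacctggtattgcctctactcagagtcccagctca
Lck, chr4:129573642-129573891: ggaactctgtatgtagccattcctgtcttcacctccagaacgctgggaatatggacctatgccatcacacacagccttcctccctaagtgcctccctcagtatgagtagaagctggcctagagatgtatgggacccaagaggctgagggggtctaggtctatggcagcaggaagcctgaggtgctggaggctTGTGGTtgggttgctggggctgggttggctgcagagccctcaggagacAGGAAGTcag

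The table of promoters matched 8 of the 9 genes, all but Cd28, with 12 entries in all. Both strands were searched, no matches overlapped, and the motifs were chosen after the sequences had been seen. The ETS motif ACTTCCT stood in 5 of the 12 entries, those of Cd3d, Cd3e, Cd247 and both of Lck, against 7.69% of 32851 promoters of the same length. The RUNX motif TGTGGT stood in 3 of the 12 (14.0% of all promoters), and CTTTGA, bound by the TCF family, in 2 (13.8%). GGGCGG, the GC box, stood in 2 (32.7%). CAGCTG, an E-box, and TATAA were in none of the 12, against 13.0% and 22.8% of all promoters. The Cd3g window held the GC box and none of the other 5 motifs. A match is a run of letters and shows no binding.

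The libraries held 12769 WT and 13754 CKO barcodes with medians of 5984 and 4549 UMIs, and 56 barcodes occurred in both. In gated T cells the medians lay closer, at 6331 and 5935 UMIs. All 8 further T cell markers (Trbc1, Trbc2, Cd2, Cd5, Cd6, Il7r, Lef1 and Tcf7) were detected in gated T cells of both libraries. They summed to 4925 and 4764 CPM (the UMIs of a gene scaled to all UMIs of its class), against 215 and 233 CPM in B cells. Cd2 alone made up 158 and 186 CPM of the B cell sums. The near-equal sums of the gated T cells hide unequal markers. Il7r stood at 377 CPM in WT and at 180 CPM in CKO gated T cells, and Lef1 at 618 and 485 CPM, both called lower by the rule given below. Trbc1, Cd2, Cd5, Cd6 and Tcf7 had CKO over WT ratios above 1, from 1.02 to 1.15, and Trbc2 of 0.999. Transcripts of the targeted gene Rpa1 (ENSMUSG00000000751) were still counted, with 40.4 CPM among WT and 27.3 CPM among CKO gated T cells, for a CKO over WT ratio of 0.675 (0.614 to 0.741). By class the Rpa1 ratio was 0.519 (0.440 to 0.609) in CD4 and 0.785 (0.619 to 0.985) in CD8 T cells. It was 0.899 (0.583 to 1.37) in Foxp3 and 0.911 (0.667 to 1.26) in Trdc T cells and 1.12 (0.724 to 1.79) in NK cells. The intervals in Foxp3, Trdc and NK cells included 1. The counted 3′ tags may lie outside the deleted stretch, so the Rpa1 level does not measure the share of cells with the deletion.

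Over all gated T cells none of the 9 genes differed by 25% between the libraries. The 9 genes were called by a rule of size: a mean of at least 20 CPM, a level at least 25% higher in one library than in the other, and an interval that excludes 1. None of the 9 was called in gated T cells, where the same rule called 6.62% of 5318 genes higher and 1.6% lower in CKO. The ratios of the 9 ran from 0.856 for Cd28 to 1.13 for Lck, and their median log2 ratio was 0.01, beside 0.09 for all genes at the floor. Cd3d stood at 918 CPM in WT and at 847 CPM in CKO, Cd3g at 864 and 871 CPM, and Cd3e at 526 and 537 CPM. Every one of the 9 was lower in B cells, where Lck stood at 24.2 and 24.8 CPM, Ptpn22 at 13.9 and 14.2 CPM, and Cd3d at 11.3 and 7.69 CPM. How much of these B cell levels is free RNA was not tested.

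**Figure D1:**
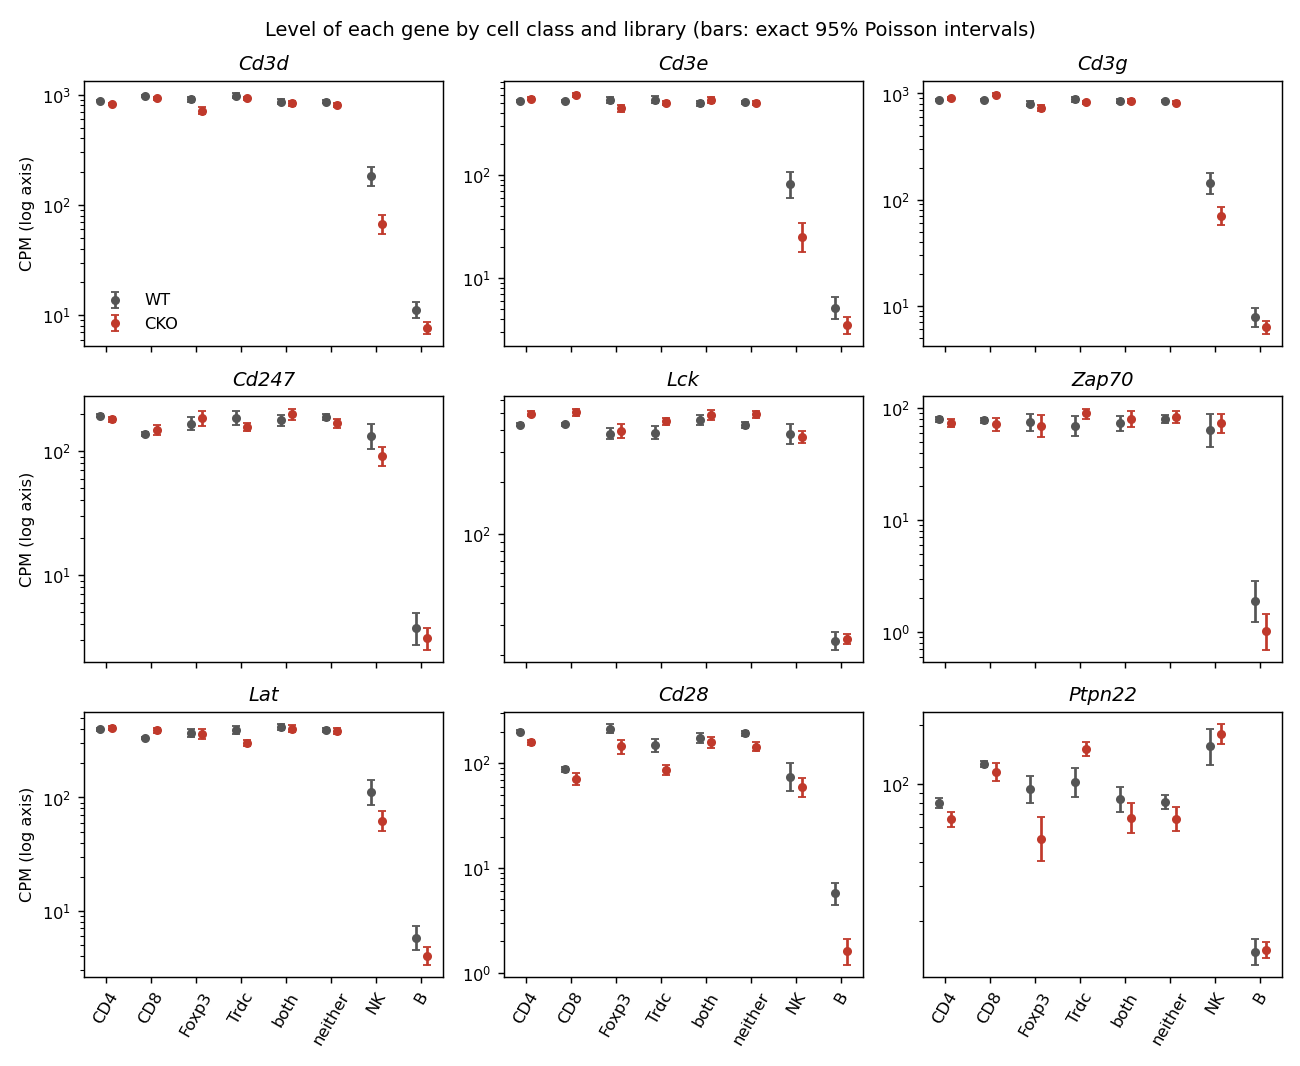
Level of each of the 9 genes (CPM, log axis) in the cell classes of the WT (grey) and CKO (red) library, with exact 95% Poisson intervals as bars and 1 library per genotype. The CD3 genes lie far lower in NK and B cells than in the 6 T cell classes, while Lck, Zap70 and Ptpn22 in NK cells lie near or above their T cell levels.

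None of the 4 signalling chains of the receptor was called in CD4 or CD8 T cells. Cd3d, the delta chain, in CD4 T cells stood at 883 CPM (869 to 897) in WT and at 817 CPM (797 to 837) in CKO, for a ratio of 0.925. Cd3e, the epsilon chain, stood at 526 and 556 CPM, and Cd3g, the gamma chain, at 864 and 898 CPM. Cd247, the zeta chain, stood at 194 and 181 CPM. All 4 therefore lay within 10% of equality in this class, with Cd3d and Cd247 below 1 and Cd3e and Cd3g above. In CD8 T cells Cd3e was at 530.0 CPM in WT and at 602 CPM in CKO, for a ratio of 1.14 (1.08 to 1.19), and Cd3g at 874 and 973 CPM, for a ratio of 1.11. Both intervals lay above 1, with log2 ratios of 0.18 and 0.15 beside a median of 0.12 over all genes of the class. Cd3d was again below 1, at 969 and 922 CPM.

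Because the 4 chains were counted in the same cells, their shares of the chain UMIs do not depend on how the libraries are scaled. Cd3d made up, in CD4 T cells, 35.8% (35.3 to 36.3) of the UMIs of the 4 chains in WT and 33.3% (32.7 to 34.0) in CKO. In CD8 T cells it made up 38.6% (38.2 to 39.0) and 34.9% (33.8 to 35.9). The intervals did not overlap in either class. Cd3g took the larger share in CKO, 36.6% against 35.0% in CD4 and 36.8% against 34.8% in CD8 T cells. Cd3e moved the same way, 22.7% against 21.3% and 22.7% against 21.1%. In Foxp3 T cells Cd3d made up 37.4% in WT and 34.4% in CKO, with overlapping intervals, and in Trdc T cells 37.7% and 38.3%. A share shows that the chains differed unequally between the libraries, and not which of them differed.

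Foxp3 T cells were the one T cell class in which a CD3 gene was called. Cd3d stood there at 903 CPM (858 to 949) in WT and at 714 CPM (667 to 764) in CKO, for a ratio of 0.791 (0.726 to 0.861). Cd3e stood at 540.1 and 446 CPM, for a ratio of 0.826 that missed the fold, and Cd3g at 803 and 733 CPM. Cd247 was at 166 and 184 CPM with overlapping intervals. The Cd3d ratio was 0.850 in the Foxp3 T cells without interferon-induced UMIs of Ifitm3, Rsad2, Ifit1 or Ifit3 (133 WT and 80 CKO cells), and was then no longer called. Over all alternatives the Cd3d call was made in 10 of 16. In Trdc T cells none of the 4 chains was called, and Cd3d stood at 977 and 923 CPM.

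Lck, the kinase that starts the cascade, had a ratio above 1 in all 6 T cell classes. It stood in CD4 T cells at 429.5 CPM in WT and at 496 CPM in CKO, for a ratio of 1.16 (1.11 to 1.20), and in CD8 T cells at 430.4 and 506 CPM, for a ratio of 1.18 (1.11 to 1.24). Trdc T cells gave a ratio of 1.16 (1.05 to 1.28), and Foxp3 T cells 1.04 with an interval that included 1. T cells with both co-receptors gave 1.07, also with an interval that included 1. The median log2 ratio of all genes was positive in all 6 classes too, from 0.02 in Foxp3 to 0.12 in CD8 T cells. The Lck log2 ratios in those 2 classes were 0.06 and 0.23. No class reached the 25% needed for a call, and over the alternatives run in T cells the highest Lck ratio was 1.33, in Trdc T cells. At an equal 2000 UMIs per cell, an Lck UMI was found in 57.9% (56.0 to 59.8) of WT and 64.1% (61.4 to 66.7) of CKO CD4 T cells, against 4.16% and 4.37% of B cells.

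Zap70, the kinase recruited by the phosphorylated chains, was called in Trdc T cells and in no other T cell class. It stood at 79.3 CPM in WT and at 74.1 CPM in CKO in CD4 T cells, at 77.7 and 71.7 CPM in CD8 T cells, and at 75.3 and 69.6 CPM in Foxp3 T cells, each pair with overlapping intervals. In Trdc T cells it was called higher in CKO, at 69.7 and 89.7 CPM, for a ratio of 1.29 (1.02 to 1.63). That call rests on 93 WT UMIs, and 9 of 16 alternatives did not make it. Lat, the adaptor that Zap70 phosphorylates, stood at 399.6 CPM in WT and at 409 CPM in CKO CD4 T cells and at 334 and 390.3 CPM in CD8 T cells, where its ratio was 1.17 (1.097 to 1.242). Lat in Trdc T cells was called lower in CKO, at 394 and 304 CPM, for a ratio of 0.770 (0.695 to 0.854).

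Cd28, the co-stimulatory receptor, was called lower in CKO in more T cell classes than any other of the 9. Its ratio was below 1 in all 6 T cell classes, from 0.586 to 0.909, as was that of Cd3d, from 0.791 to 0.967. The Cd28 ratio stayed below 1 under every alternative run in gated, CD4, CD8, Foxp3 and Trdc T cells. CD4 T cells held it at 201 CPM (194 to 208) in WT and at 159 CPM (149.8 to 168) in CKO, for a ratio of 0.788 (0.738 to 0.841). Cd28 was the only 1 of the 9 called in CD4 T cells, where the rule called 5.18% of genes higher and 2.58% lower. Foxp3 T cells held 215 and 145 CPM, for a ratio of 0.675 (0.559 to 0.811). Trdc T cells held 148 and 87.0 CPM, for a ratio of 0.586 (0.491 to 0.701). T cells with neither co-receptor held 194 and 144 CPM, for a ratio of 0.742. In CD8 T cells, which had less Cd28 in both libraries, the levels were 87.4 and 71.0 CPM. The ratio there of 0.812 (0.703 to 0.936) fell just short of the fold, and over the alternatives it ran from 0.749 to 0.985.

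The size of the Cd28 ratio depended on which cells were counted. In CD4 T cells without a UMI of Ifitm3, Rsad2, Ifit1 or Ifit3, genes induced by interferon, 1589 WT and 594 CKO cells remained and the ratio was 0.837. Without cells holding a Maf, Ctla4 or Icos UMI (2072 and 1057 remained) it was 0.844. It was 0.850 when each cell counted equally and 0.832 when cells were gated at an equal 2000 UMIs. Cd28 was not called in CD4 T cells under any of these 4, each with an interval below 1. In Foxp3 T cells without interferon-induced UMIs (133 and 80 cells) the ratio was 0.914 (0.702 to 1.18). In all gated T cells, the CKO level reweighted to the WT make-up of the 6 classes gave 0.781, against 0.856 as captured. The part of these cells in the Cd28 values was not tested.

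**Figure D2:**
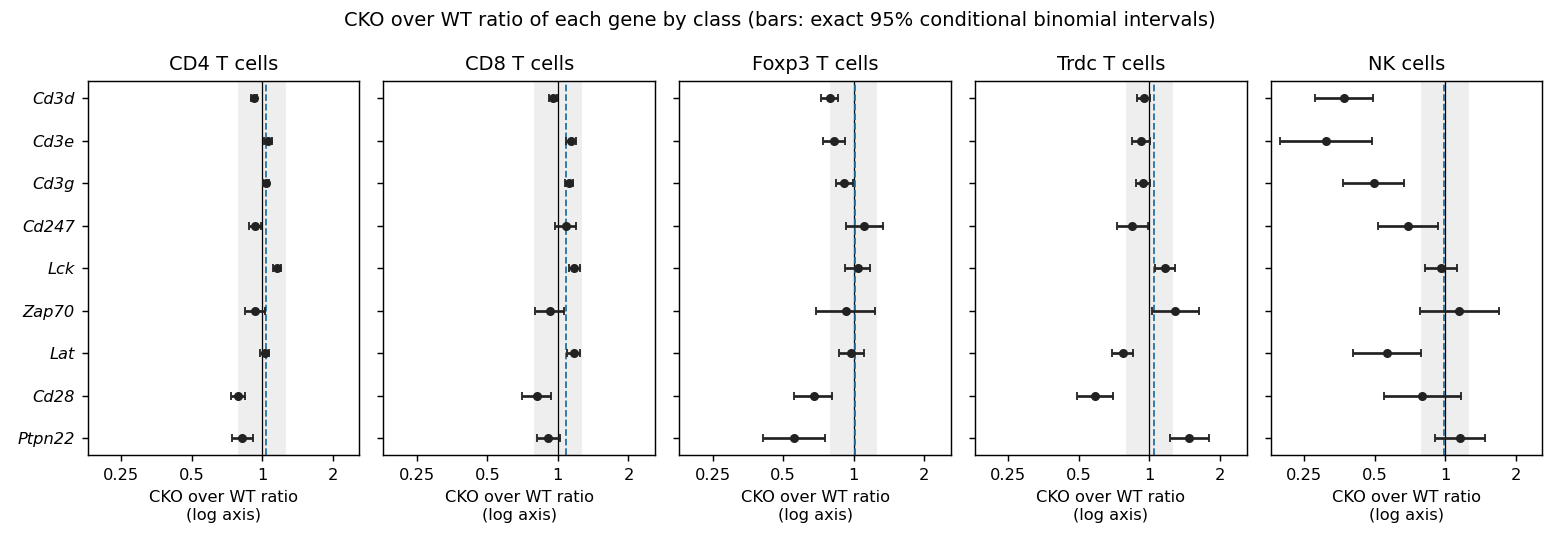
CKO over WT ratio of each gene (log axis) in 5 classes, with exact 95% conditional binomial intervals; the grey band holds differences under 25% and the dashed line is the median of all genes at the floor. Cd28 lies left of 1 in every panel, and Ptpn22 lies left of 1 in Foxp3 T cells (0.557) and right of 1 in Trdc T cells (1.48).

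Cd28 was also detected in a smaller share of CKO than WT cells at equal depth. At 2000 UMIs per cell a Cd28 UMI was found in 31.9% (30.1 to 33.7) of WT and 27.2% (24.7 to 29.7) of CKO CD4 T cells, against 0.364% and 0.138% of B cells. These 2 intervals for CD4 T cells did not overlap. Without thinning the shares were 64.2% and 56.0%, at median depths of 6035 and 5840.5 UMIs. In Trdc T cells they were 24.0% (17.9 to 30.3) and 14.9% (11.9 to 18.2) at 2000 UMIs, and the intervals overlapped slightly. In Foxp3 T cells they were 31.3% and 25.5%, with wide overlap. CD8 T cells had shares of 14.6% (13.3 to 15.9) and 13.3% (10.2 to 16.8), also with overlap.

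**Figure D3:**
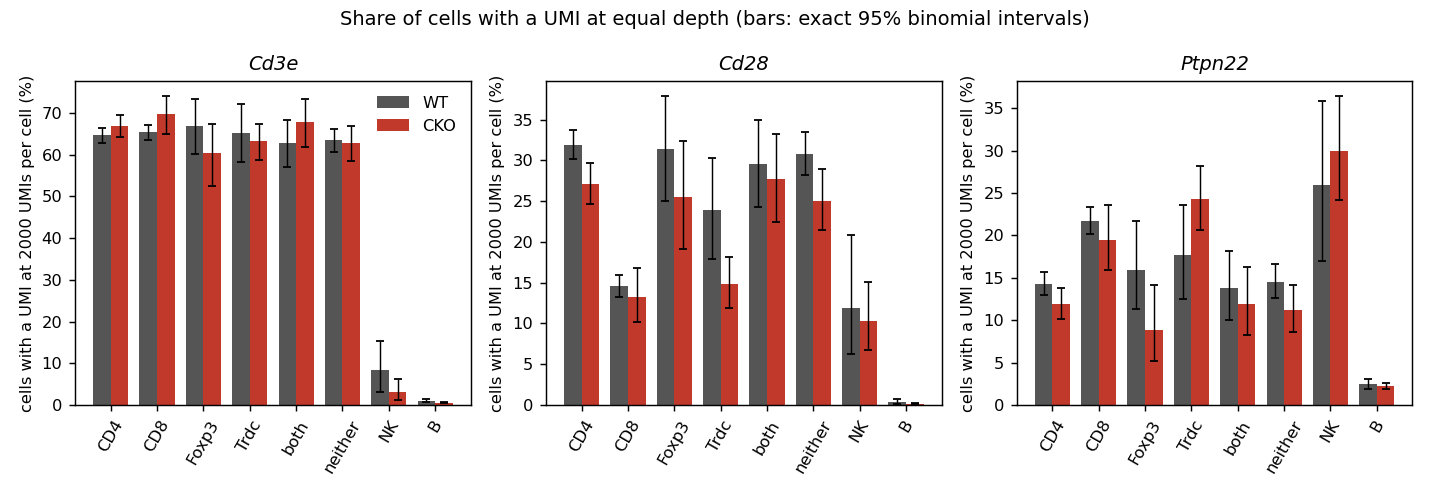
Share of cells (%) with at least 1 UMI of Cd3e, Cd28 or Ptpn22 at 2000 UMIs per cell in WT (grey) and CKO (red). Error bars are 95% binomial intervals at the rounded mean count of cells, and are approximate. Cd3e is found in over 60% of the cells of every T cell class and in 1.01% (WT) and 0.559% (CKO) of B cells. The Cd28 share is lower in CKO in each class, with intervals apart in CD4 T cells alone.

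Ptpn22, the phosphatase of the group, went in opposite directions in 2 classes. In Foxp3 T cells it stood at 94.4 CPM (80.3 to 110.3) in WT and at 52.6 CPM (40.3 to 67.4) in CKO, for a ratio of 0.557 (0.409 to 0.752). These levels rest on 158 WT and 62 CKO UMIs. Trdc T cells held 102 CPM (85.5 to 121) and 151 CPM (139 to 163), for a ratio of 1.48 (1.23 to 1.80). The library intervals were apart in both classes, and the difference between the classes was not tested. At 2000 UMIs, 15.9% of WT and 8.81% of CKO Foxp3 T cells had a Ptpn22 UMI, and 17.7% and 24.3% of Trdc T cells, each pair with overlapping intervals. Ptpn22 in CD4 T cells stood at 80.0 and 66.0 CPM, for a ratio of 0.824 (0.743 to 0.913), and in CD8 T cells at 126 and 115 CPM. It was not called in either class.

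Counted together, 3 of the 9 genes were called lower in Foxp3 T cells (Cd3d, Cd28 and Ptpn22) and none higher, where the rule called 7.74% of 5546 genes higher and 6.74% lower. In Trdc T cells 2 were called higher (Ptpn22 and Zap70) and 2 lower (Lat and Cd28), where it called 13.4% higher and 4.96% lower. None was called in CD8 T cells, where it called 13.4% higher and 2.6% lower. The median log2 ratio of the 9 was -0.10 in CD4, 0.11 in CD8, -0.13 in Foxp3 and -0.09 in Trdc T cells, beside 0.05, 0.12, 0.02 and 0.07 for all genes at the floor. In CD8 T cells median-ratio scaling called 6% of genes higher and 5.58% lower, in CD4 T cells 3.44% and 3.89%, and in all gated T cells 3.93% and 2.99%. In Trdc T cells it called 10.2% and 7.54%, and totals without ribosomal and mitochondrial genes gave 8.46% and 7.97%, so the lean towards higher calls depends on the scaling in these classes.

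Foxp3 and Trdc T cells differed between the libraries in more than the 9 genes. The WT Trdc T cells held 562 CPM of Trac, the alpha chain gene that the T cell gate counts with Thy1, against 325 CPM in CKO. Their 5 gamma delta markers (Trdc, Tcrg-C1, Tcrg-C2, Tcrg-C4 and Sox13) summed to 536 CPM in WT and to 1110 CPM in CKO. Trdc, which the gate requires, made up 414 and 741 CPM of these sums. Sox13 was under the floor, at 4.50 and 3.43 CPM, and the 3 Tcrg genes were called higher in CKO. Their 7 NK markers summed to 540.4 and 1358 CPM, and no marker of either list was at 0. With at least 2 Trdc UMIs and no Trac UMI, 19 WT and 174 CKO cells remained. Of the 4 calls only that of Cd28 held there, and Ptpn22 had a ratio of 1.66 (0.949 to 3.16). Foxp3 T cells had like levels of Il2ra (344 and 343 CPM), but Ctla4 was at 229 and 89.9 CPM and Ikzf2 at 578 and 440.3 CPM. Foxp3, which the gate of this class requires, stood at 289.8 and 322 CPM. The 6 B cell markers, with Cd79a at 0 by the gate, summed to 434 and 249 CPM in Foxp3 T cells, where Ms4a1 was also at 0 in WT, and to 319.7 and 419 CPM in CD8 T cells. The 4 myeloid markers summed to 113 and 278 CPM in Trdc T cells. The part of these differences in the values of the 9 genes was not tested.

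In NK cells the CPM of the CD3 genes was far below that in T cells in both libraries and lower still in CKO. Cd3d stood at 182 CPM (149 to 220.1) in WT and at 67.1 CPM (54.7 to 81.6) in CKO, Cd3e at 81.4 and 25.3 CPM, and Cd3g at 142 and 70.5 CPM. Cd247 stood at 132 and 91.1 CPM and Lat at 111 and 62.5 CPM. These 5 were called lower, with ratios from 0.310 to 0.692, where the rule called 4.2% of genes higher and 4.49% lower. Lck (381 and 365 CPM), Zap70 (64.1 and 73.1 CPM) and Ptpn22 (156 and 180.1 CPM) had overlapping intervals. The CD3 UMIs came from a minority of NK cells, those of Cd3e from 12 of 90 WT and 15 of 234 CKO cells. At 2000 UMIs per cell a Cd3d UMI was found in 15.1% (8.77 to 24.7) of WT and 6.91% (4.03 to 11.1) of CKO NK cells. These intervals overlapped, as did those of Cd3e and of Cd3g. The alpha chain gene Trac moved with the CD3 genes, at 126 CPM in WT and at 46.5 CPM in CKO NK cells. Without cells holding a Trac or Trdc UMI (51 WT and 137 CKO cells) only Cd3d was called, at a ratio of 0.296 (0.132 to 0.646), and without any Trac, Trbc1, Trbc2 or Trdc UMI (7 and 21 cells) none was.

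Set in order over the 5 classes, each CD3 gene was lowest in NK cells in both libraries. In WT, Cd3e ran from 544 CPM in Trdc to 526 CPM in CD4 T cells with overlapping intervals between neighbours, and then dropped to 81.4 CPM in NK cells. Lck had overlapping intervals between all neighbours in WT, from 430.4 CPM in CD8 T cells to 381 CPM in NK cells. Cd28 was highest in Foxp3 and CD4 T cells, whose intervals overlapped in each library, and lowest in CD8 T cells and NK cells. Ptpn22 was in WT highest in NK cells (156 CPM) and CD8 T cells (126 CPM), which overlapped, and lowest in CD4 T cells.

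Over 16 profiles (8 classes in each library), the 3 CD3 genes were each other's nearest genes of 7288 compared. Pearson's r of log2(CPM + 1) was 0.998 for Cd3d with Cd3g, 0.998 for Cd3d with Cd3e and 0.997 for Cd3e with Cd3g. Lat was nearest to the receptor chains Trbc2 (0.997) and Trac (0.997), Cd247 to Fyb (0.997), and both Lck and Zap70 to Skap1 (0.997 each). Cd28 was nearest to Ikbke (0.977) and Ptpn22 to Gm15472 (0.985). The profiles share libraries and the contrast of T cells with B cells, so these values are a description. Within single cells thinned to 2000 UMIs, a median of 4 of the 9 genes was detected in gated T cells of both libraries, and 0.289% of WT and 0.656% of CKO cells had none.

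Of 64 further genes of the pathway, 63 were in the files. Of these, 53 reached the floor in CD4 T cells, and none was called higher and 2 lower, where 5.18% and 2.58% of all genes were. These were Icos, a co-stimulatory receptor of the CD28 family (38.1 and 23.1 CPM), and Ubash3b, a phosphatase of the receptor pathway (28.6 and 21.7 CPM). In CD8 T cells 5 of 52 were called higher and none lower, where 13.4% of all genes were called higher and 2.6% lower. They were the adaptors Pag1 (76.9 and 111 CPM) and Trat1 (23.3 and 33.4 CPM), Ubash3a (78.3 and 98.5 CPM), the calcium channel Itpr1 (35.6 and 44.9 CPM) and the phospholipase Plcg1 (41.1 and 52.4 CPM). In CD4 T cells none of 7 other kinases, such as Fyn, and none of 18 adaptors was called.

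In Foxp3 T cells 5 of 54 of these genes were called higher and 8 lower, where 7.74% and 6.74% of all genes were. The 3 lowest ratios were those of Icos (ratio 0.162, from 173 CPM in WT), Ubash3b (0.329, from 74.7 CPM) and Ctla4, the inhibitory receptor that shares its ligands with CD28 (0.392). The 3 highest were those of Itpr1 (1.60), the inhibitory adaptor Dok2 (1.39) and Tespa1 (1.38). Of the 5 listed co-stimulatory and inhibitory receptors, 4 reached the floor and 3 were called lower, Icos, Ctla4 and, outside the CD28 family, Cd226 at a ratio of 0.645. Among Trdc T cells 9 of 58 were called higher and 7 lower, where 13.4% and 4.96% of all genes were. These counts include 2 genes that the gate itself used, Trdc among the higher and Trac among the lower. The constant genes Tcrg-C1 (24.0 and 108 CPM), Tcrg-C2 (51.7 and 140.4 CPM) and Tcrg-C4 (41.2 and 117 CPM) were higher. Trat1 (63.7 and 32.1 CPM), Trac and Cd5, an inhibitory surface receptor (214 and 129.6 CPM), had the lowest ratios.

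**Figure D4:**
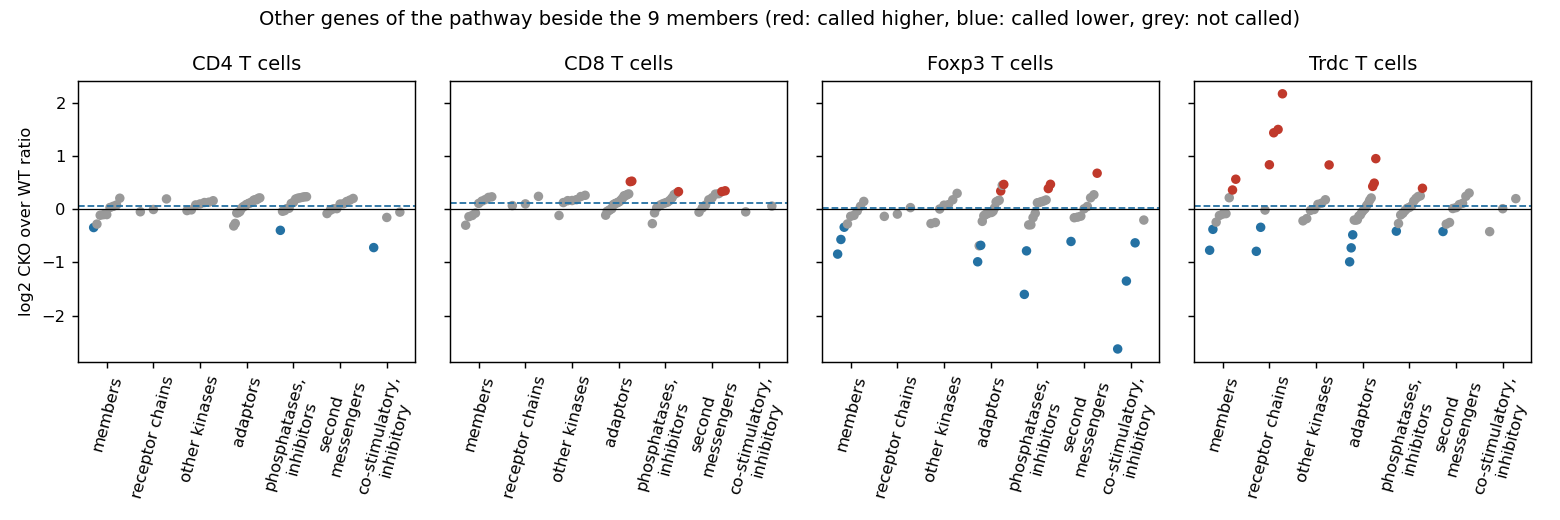
Log2 CKO over WT ratio of the 9 genes and of the further pathway genes at the floor, by list, in 4 classes; red points were called higher, blue lower and grey not called, and the dashed line is the median of all genes. CD4 T cells hold 2 called points outside the 9 genes and CD8 T cells 5, while Foxp3 T cells hold 13 and Trdc T cells 16. The 16 include the gate genes Trdc and Trac.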

How the data were processed

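The authors deposited UMI counts for each gene and barcode, made with Cell Ranger, version 6.0.2 per the file headers and 5.0.0 per the submitters' processing notes, which also list Seurat 4.0.3 and the build mm10. Samples were grouped by the genotype label. A cell needed at least 500 UMIs and 200 genes, with mitochondrial UMIs not above 10%, which 306 WT and 437 CKO barcodes exceeded. The highest doublet scores by Scrublet's method were left out at 0.8% per 1000 barcodes (1304 and 1513), which left 11161 WT (87.4%) and 11803 CKO cells (85.8%). In each class and library the counts were added up and divided by the class total (CPM), with exact Poisson intervals, and ratios have exact conditional binomial intervals. Shares are means over all thinnings to 2000 UMIs, leaving out shallower cells (16 gated T cells in each library). Their binomial intervals were taken at the rounded mean count of cells and are approximate. No test was made. The steps were tested on simulated data.

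The genes, gene lists and tests were chosen with earlier results of these data known. All 9 genes were named in every class. Of the pathway genes, those called in CD4 or CD8 T cells, at most 3 of the highest and 3 of the lowest ratios of a class, and receptor chain constant genes were named. For likeness, the nearest genes over 16 profiles were taken. Cd226 was named after its values were seen. Of the other marker lists, B cell markers summed to 295 and 304 CPM in gated T cells, plasma cell markers to 28.1 and 38.0 CPM, myeloid markers to 116 and 148 CPM and type 2 innate lymphoid markers to 40.0 and 51.5 CPM. Alternatives changed the scaling, weighting, floor, fold, filters and gates. The alternatives on Trdc and Trac, on Maf, Ctla4 and Icos, on all receptor chains in NK cells and 1 more in Foxp3 T cells, which is not reported here, were chosen after seeing the data. Python 3.11.15, numpy 2.4.6, scipy 1.17.1, pandas 2.3.3 and matplotlib 3.10.9 were used, with gene positions from GENCODE M21.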

Additional observations from a re-analysis of the deposited data

Results flagged for a closer look

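Ptpn22 was called in opposite directions in 2 classes. Its CKO over WT ratio was 0.557 in Foxp3 T cells and 1.48 in Trdc T cells. The difference between the classes was not tested. The call in Foxp3 T cells was made under 16 of 16 alternatives and that in Trdc T cells under 14 of 16. It was not made in Trdc T cells with a 1.5-fold rule or with at least 2 Trdc UMIs and no Trac UMI.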

How the results depend on the processing

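With 1 library per genotype, differences between mice, captures and genotypes cannot be told apart, and the counts of WT Trdc and NK cells limit their ratios. Of the log2 ratios of the 9 genes under alternatives, 751 stayed within the counting interval, 83 moved, and of the called ones 1 changed sign, beside others that were not called. Lat in NK cells without interferon-induced UMIs had a log2 ratio of 0.001419, against -0.83. For shares, 75 stayed and 15 moved. A 1.1-fold rule called 3 of the 9 genes in all gated T cells and 3 in CD4 T cells (Lck higher, Cd28 and Ptpn22 lower in both) and 5 in CD8 T cells. A 1.5-fold rule called 0 in CD4, 1 in Foxp3 (Ptpn22) and 1 in Trdc T cells (Cd28). Reweighting CKO to the WT make-up called 1 in gated T cells (Cd28). In CD4 T cells median-ratio scaling called 2 (Cd28 and Ptpn22). Equal weight per cell, leaving out interferon-induced cells, and leaving out cells with Maf, Ctla4 or Icos each called 0. Gating at equal depth called 1, Ptpn22 in place of Cd28. In CD8 T cells 1 gene, Cd28, was called with totals without ribosomal and mitochondrial genes, with median-ratio scaling, without doublet removal, and with at least 3 Thy1 and Trac UMIs, and 2 (Zap70 and Cd28) without interferon-induced cells. At least 2 Trdc UMIs and no Trac UMI left 1 call in Trdc T cells. In NK cells 1 was called without Trac or Trdc UMIs, 2 (Cd3d and Cd247) without interferon-induced cells, and 0 without any receptor chain UMI, where Cd3d and Cd3e gave no ratio. The cause of these changes was not tested. No paired analysis was possible because each genotype has 1 library.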
